A study of Mus musculus with 6 samples.

Results

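The mouse cochlea 24 h after noise and dexamethasone was compared with the cochlea 12 h after the same exposure and injection, the time course under the drug. Each time was represented by 1 one-colour Agilent gene expression array, so the comparison drew on 2 of the 6 arrays of the study. A gene counted as measured where its probe was well above background on both dexamethasone arrays, which held for 23166 of 37287 genes. All groups were female C57BL/6 mice aged 6 weeks, 6 per group by the design text, and no allele or transgene is labelled. The dexamethasone 24 h and 12 h groups heard intense noise for 2 h and then received dexamethasone sodium triphosphate intraperitoneally at 10 mg/kg. The saline 24 h and 12 h groups had the same noise and a saline injection, the noise-only group had noise with no injection, and the baseline group had neither. The sources used here do not say whether RNA of several mice was pooled for an array, how loud the noise was or at which hour of day tissue was taken.

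Dexamethasone is a synthetic glucocorticoid that binds the glucocorticoid receptor, a transcription factor that activates genes such as Fkbp5 and Per1 and restrains inflammatory genes. It is given for acute hearing loss, and the receptor is present in the cells of the cochlea. Glucocorticoids also set the phase of the circadian clock in peripheral tissues, where CLOCK and ARNTL activate genes through E-box elements, PER and CRY proteins repress them, and the PAR bZIP factors DBP, TEF and HLF act through D-box elements.

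Levels are log2 signal relative to the 75th percentile of the array, which lay between 537 and 679 signal units over the 6 arrays, and differences are 24 h minus 12 h of these levels. Of the cochlear markers examined, Coch, Otos, Otof, Myo7a, Pou4f3, Otoa, Kcnq1, Kcne1, Nefl, Prph and Slc17a7 were well above background on both dexamethasone arrays, Tecta on the 24 h array alone and the outer hair cell gene Slc26a5 on neither. The dexamethasone 24 h array had 64.6% of probes well above background and the 12 h array 67.5%. Since each time had 1 array, the comparison itself has no replicate and no p-value, and the range in brackets behind a fold reflects the scanner software's error of the spot, not the spread between mice. The 24 h array lay on another slide than the 12 h array and was scanned on another day, so slide and time cannot be told apart. The saline 24 h and 12 h arrays lay on the same pair of slides and share no array with the dexamethasone comparison, and their difference is given beside it.

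Between 24 h and 12 h after dexamethasone, genes of peripheral neurons, myelin, lipid synthesis, interferon response and collagen were higher, and genes of glands, epidermis, cerebellum, skeletal muscle and neutrophils were lower. Among 23166 measured genes, 747 (3.22%) exceeded a 2-fold difference upward at 24 h and 883 (3.81%) downward, 7.04% in all. With scaling on spike-in probes the counts were 989 and 720. Counts of list members past 2-fold under dexamethasone, given further on, stand against the shares of 3.22% and 3.81%. The median difference was 0.0073, the middle of the distribution spanned -0.28 to 0.28 between the quartiles, with 50.8% of genes above 0 and 49.2% below. Spike-in scaling added 0.107 to every dexamethasone difference and 0.486 to every saline difference. Under saline, 599 genes (2.61% of 22932) were at least 2-fold higher at 24 h than at 12 h and 959 (4.18%) lower by as much, 6.79% together, or 2953 and 320 with spike-in scaling, and 48.0% of genes lay above 0 and 52.0% below. Across the 22478 genes measured on all 4 arrays, the dexamethasone difference and the saline difference had a Pearson correlation of 0.68 and a Spearman correlation of 0.66, a description across genes, which are not independent, on arrays that share slides. Of the 675 such genes at least 2-fold higher under dexamethasone, 205 (30.4%, and 38.2% of the 537 under saline) were so under saline too. Of the 823 at least 2-fold lower, 409 (49.7%, and 45.3% of the 902 under saline) were so under saline. A further 18 genes were at least 2-fold apart in opposite directions, 12 of them higher under dexamethasone.

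**Figure D1:**
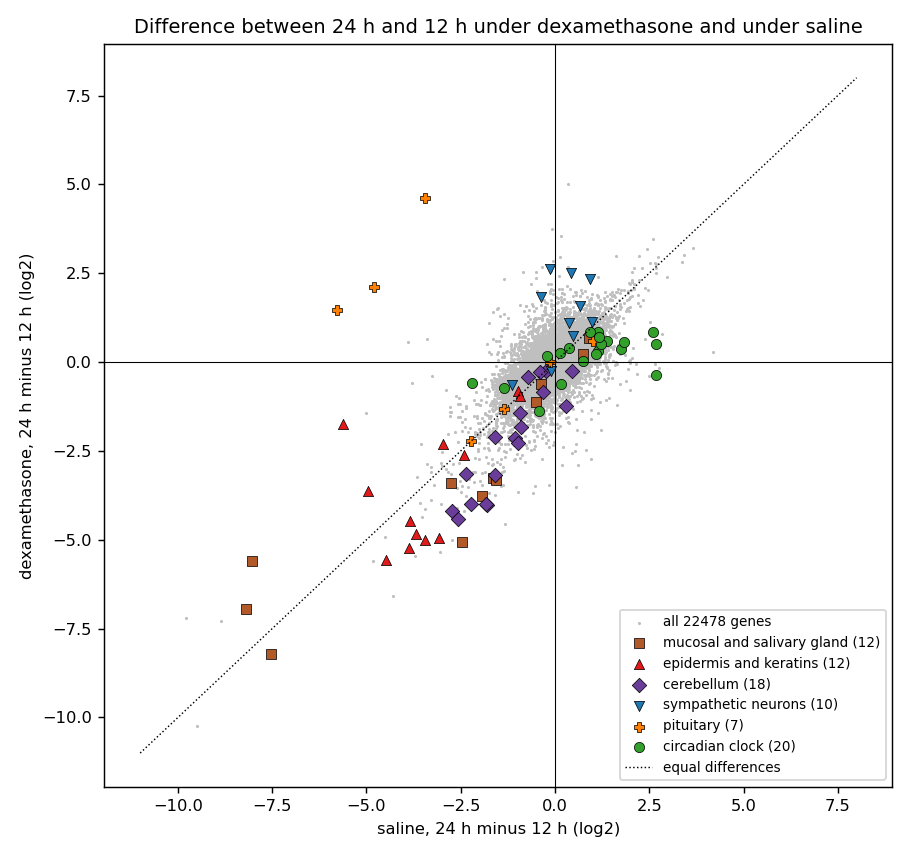
Each point is a gene measured on all 4 arrays, with the dexamethasone difference (24 h minus 12 h, log2) on the vertical axis and the saline difference on the horizontal axis, and colours mark 6 gene lists. Most gland and epidermal genes lie low on both axes, most sympathetic genes lie above the dotted line of equal differences, and most clock genes lie below it.

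The difference between the dexamethasone and the saline time differences could not be tested, since 4 arrays leave no residual degree of freedom for it. It was at least 2-fold on the positive side for 495 genes (2.2% of 22478) and on the negative side for 422 (1.88%), 4.08% in all, or 196 and 1255 with spike-in scaling. The time difference over both treatments could be tested with limma, where its error is how unlike the dexamethasone and saline differences were. That test called 2124 of 24740 genes (8.59%) at an adjusted p under 0.05, 898 (3.63%) higher and 1226 (4.96%) lower at 24 h. These calls rest on the mean-variance trend of the fit. Without it 22 genes were called, among them from the lists described here the gland genes Tff2 and Dcpp2 and the epidermal gene Dsg1a, so the other calls of list genes given with an adjusted p or a count were lost. With 1 array left out, the treatment term has to be dropped too, which with all 4 arrays gave 118 calls. Such fits called 0 genes without the dexamethasone 12 h array and 0 without the saline 12 h array (5430 and 3487 at an unadjusted p under 0.05), 228 without the dexamethasone 24 h array and 466 without the saline 24 h array. Among the genes it called that were highest under dexamethasone were Pck1, a rate-limiting enzyme of gluconeogenesis (4.59-fold higher, limma adjusted p = 0.014), Trpm1, a channel of melanocytes (4.07-fold, limma adjusted p = 0.0139), and the myelin gene Mobp (3.93-fold, limma adjusted p = 0.0154). Under saline the log2 differences of Pck1, Trpm1 and Mobp were 1.98, 1.84 and 1.64. The Trpm1 difference under dexamethasone was 0.96 as the mean over its probes.

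**Figure D2:**
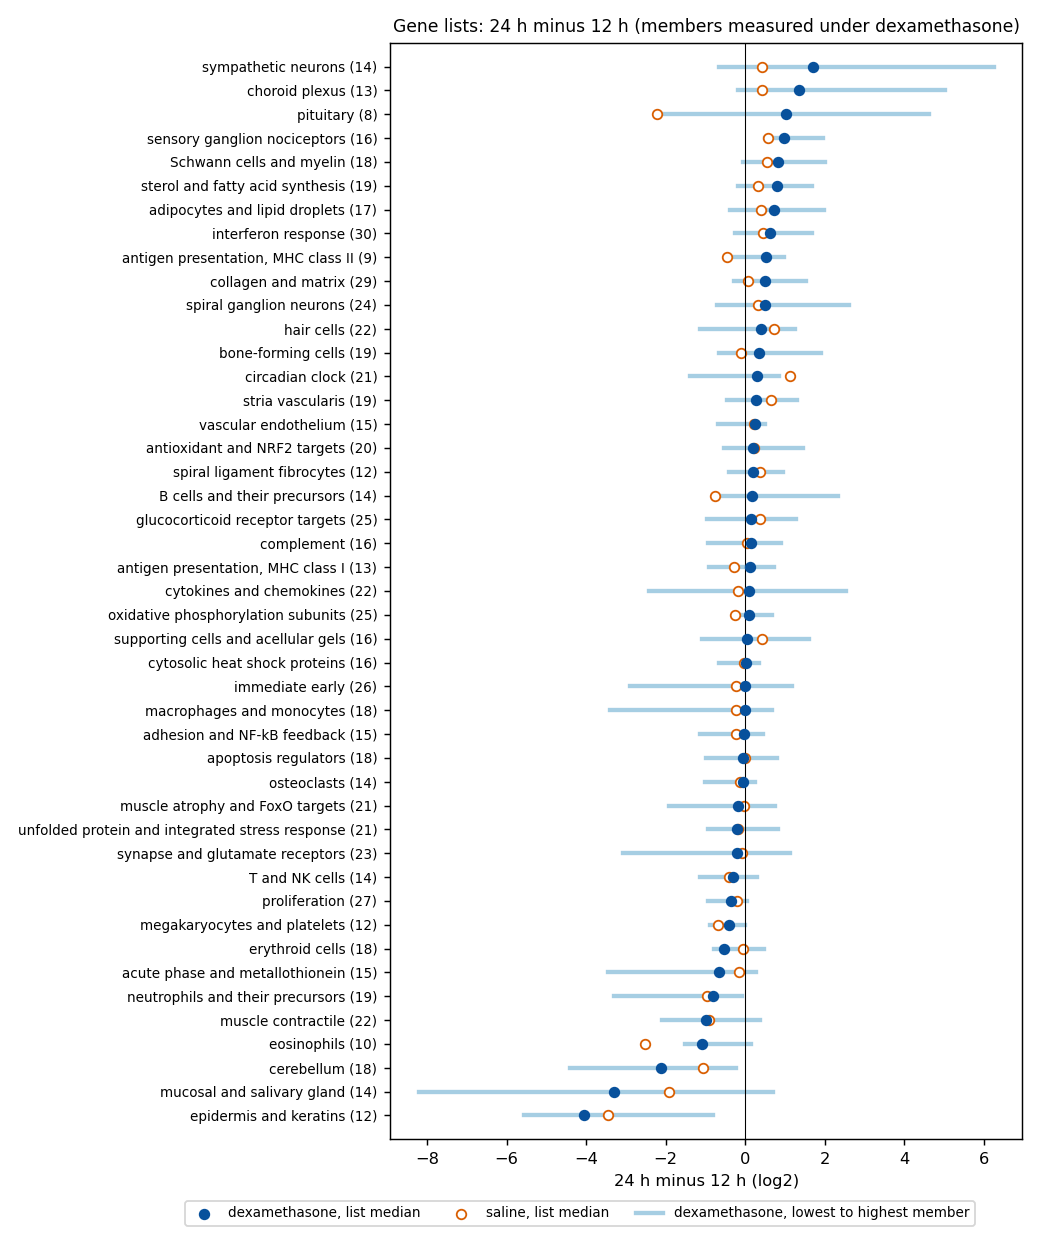
Median difference (24 h minus 12 h, log2) of 45 gene lists under dexamethasone (filled points) and under saline (open points), with bars from the lowest to the highest member under dexamethasone and the number of measured members in brackets. The dexamethasone medians run from -4.05 for epidermis and keratins to 1.71 for sympathetic neurons. Those of the circadian clock (0.30 under dexamethasone, 1.13 under saline), pituitary and MHC class II stand away from their saline values. So do others, among them eosinophils (-1.10 under dexamethasone, -2.53 under saline), mucosal and salivary gland (-3.29 and -1.92) and cerebellum (-2.12 and -1.07). The pituitary medians cover 8 and 7 genes, and the median gap over the 7 measured on all 4 arrays was 0.13.

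Clock genes differed less between 24 h and 12 h under dexamethasone than under saline. Of the 21 members measured under dexamethasone, 0 were 2-fold or more higher and 1 was 2-fold or more lower, and the median size of the difference was 0.52. Under saline 12 passed 2-fold upward and 2 downward, with a median size of 1.18. Over all measured genes the median size was 0.28 under dexamethasone and 0.32 under saline. The promoters shown belong to clock genes that were at least 2-fold higher at 24 h under saline and whose dexamethasone difference lay at least 2-fold below that, and carry the motifs of the clock factors in capitals, CACGTG for the E-box and TTANGTAA for the D-box. They are RefSeq sequences on GRCm38.p6, 5′ to 3′ on the gene's strand, from 250 bases before to 50 after the start of the gene. Ciart lies at chr3:95882179-95882478 (minus strand), Tef at chr15:81802423-81802722 (plus), Per3 at chr4:151044616-151044915 (minus) and Dbp at chr7:45704997-45705296 (plus).
Ciart: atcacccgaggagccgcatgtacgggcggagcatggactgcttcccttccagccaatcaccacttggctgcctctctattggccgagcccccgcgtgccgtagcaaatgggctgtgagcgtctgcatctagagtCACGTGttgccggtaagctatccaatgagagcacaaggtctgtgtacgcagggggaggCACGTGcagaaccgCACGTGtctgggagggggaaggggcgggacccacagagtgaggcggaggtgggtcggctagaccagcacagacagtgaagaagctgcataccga
Tef: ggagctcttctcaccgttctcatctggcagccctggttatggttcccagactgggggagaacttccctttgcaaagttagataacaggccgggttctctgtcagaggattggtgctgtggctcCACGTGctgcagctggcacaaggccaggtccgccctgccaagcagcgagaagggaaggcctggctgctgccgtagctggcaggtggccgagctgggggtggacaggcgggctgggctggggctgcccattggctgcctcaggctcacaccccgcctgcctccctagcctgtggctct
Per3: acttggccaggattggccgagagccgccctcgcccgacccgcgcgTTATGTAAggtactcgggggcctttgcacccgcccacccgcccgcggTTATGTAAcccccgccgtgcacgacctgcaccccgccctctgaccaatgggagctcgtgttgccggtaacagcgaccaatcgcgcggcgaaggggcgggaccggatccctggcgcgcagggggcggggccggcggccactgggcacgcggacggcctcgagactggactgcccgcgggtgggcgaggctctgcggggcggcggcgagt
Dbp: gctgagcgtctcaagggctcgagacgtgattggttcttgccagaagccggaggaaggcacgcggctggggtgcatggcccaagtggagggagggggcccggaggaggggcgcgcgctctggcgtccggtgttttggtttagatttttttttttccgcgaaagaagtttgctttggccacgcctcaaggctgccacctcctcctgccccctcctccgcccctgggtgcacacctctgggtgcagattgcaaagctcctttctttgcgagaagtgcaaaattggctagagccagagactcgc
Ciart held 3 E-boxes, Tef 1 E-box and Per3 2 D-boxes, and these letters were not found in the Dbp window shown. Both strands were searched, and CACGTT, which differs from the E-box in its last letter, was counted apart. Of 22 clock genes on the array, 18 had promoters in the table, with 27 entries in all, since a gene can have several starts. Of these entries 6 held CACGTG, 4 CACGTT and 2 TTANGTAA, and over all 32851 promoter entries the shares were 7.15%, 4.68% and 2.32%.

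Among the repressors, Per2 stood at a level of -0.50 in the dexamethasone 24 h array and -0.15 in the dexamethasone 12 h array, and at 1.84 in the saline 24 h array and -0.84 in the saline 12 h array. Its difference was -0.36 under dexamethasone and 2.67 under saline, the widest gap among the clock genes measured on all 4 arrays, and the file headers place the probe at 93312595 to 93312654 of chromosome 1 (mm9). The noise-only array held Per2 at 1.73 and the baseline array at -0.48, so the saline 24 h level lay near the noise-only level and the dexamethasone 24 h level near baseline. Per3 had differences of 0.35 and 1.75 under dexamethasone and saline, and Per1, which the glucocorticoid receptor also activates, had 0.30 and 1.13. Ciart, a repressor of CLOCK and ARNTL, had levels of -3.60 and -4.12 at 24 h and 12 h after dexamethasone, and of -1.09 and -3.78 at 24 h and 12 h after saline. Cry1 was the clock gene that was at least 2-fold lower, with a level of -3.47 at 24 h and -2.09 at 12 h after dexamethasone, 2.60-fold lower (1.89 to 3.60), while its saline difference was -0.43. Cry2 had differences of 0.22 and 1.1 under dexamethasone and saline.

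Of the output factors, Dbp had a level of 2.57 at 24 h and 1.71 at 12 h after dexamethasone, a 1.81-fold higher value (1.37 to 2.39). After saline it stood at 5.79 at 24 h and 3.20 at 12 h, so both dexamethasone arrays lay below both saline arrays and below the baseline level of 3.63. Tef had differences of 0.56 and 1.84 under dexamethasone and saline, and Hlf of 0.49 and 1.22. Of 3 other measured Tef probes, 2 had the same direction under dexamethasone, and their values ran from -0.61 to 0.23. The activator Arntl was lower at 24 h, with levels of 0.41 at 24 h and 0.99 at 12 h after dexamethasone, and -1.59 at 24 h and 0.62 at 12 h after saline. Its partner Clock had a difference of 0.16 under dexamethasone and -0.20 under saline, within spot error in both, and Npas2, a paralogue of Clock, had -0.14 under dexamethasone and was not well above background at 24 h after saline. Of the REV-ERB genes, whose proteins repress Arntl, Nr1d1 had a difference of 0.83 under dexamethasone and 1.14 under saline, and Nr1d2 of 0.60 and 1.38. Nr1d1 was called in the test over both treatments (limma adjusted p = 0.0359), and Per2, Dbp, Ciart and Arntl were not (limma adjusted p = 0.315, 0.069, 0.124 and 0.0907). Bhlhe40 and Bhlhe41, E-box repressors, had differences of 0.84 and 0.71 under dexamethasone, and Nfil3, a repressor at D-boxes, had -0.72. The nuclear receptor gene Rora had 0.03, and the kinase genes Csnk1d and Csnk1e 0.40 and 0.25, while Rorb was measured at 24 h alone and was at least 3.12-fold higher. Over the 20 clock genes measured on all 4 arrays, the dexamethasone difference was below the saline difference in 15 (45.9% of all genes), with a median gap of -0.75 against 0.031 for all genes. The part of the hour of day in these values was not tested.

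**Figure D3:**
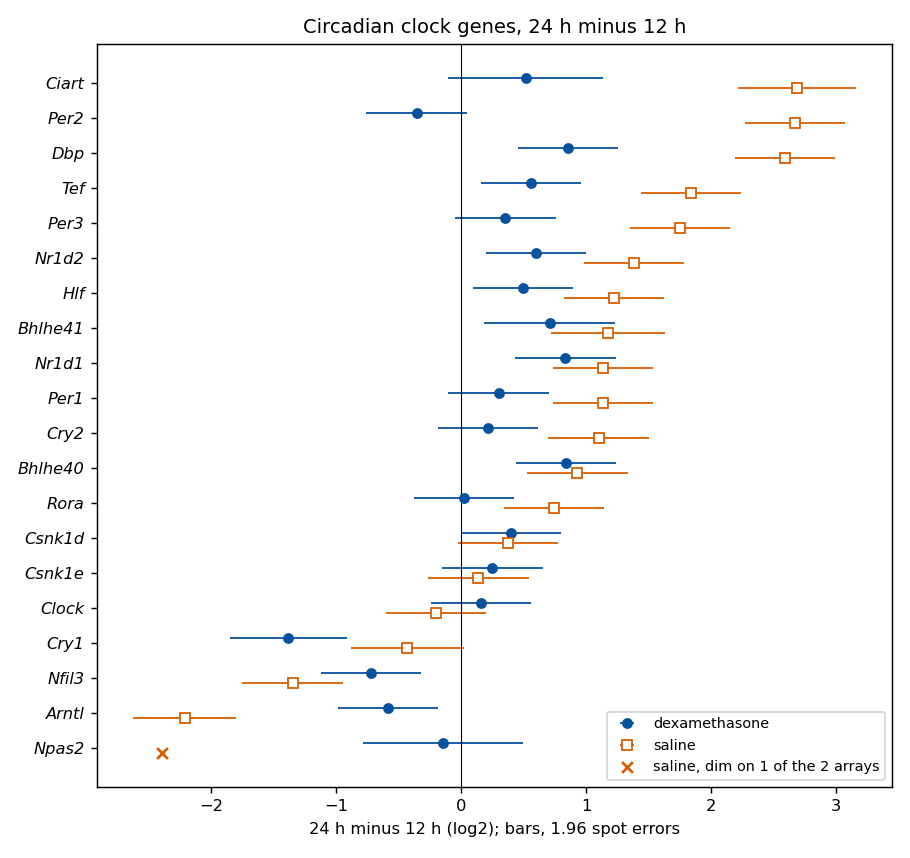
Difference between 24 h and 12 h (log2, horizontal axis) for 20 clock genes under dexamethasone (circles) and under saline (squares), with bars for the spot error interval. Ciart, Per2, Dbp, Tef and Per3 lie between 1.75 and 2.69 under saline and between -0.36 and 0.86 under dexamethasone.

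Glucocorticoid receptor targets differed between 24 h and 12 h after dexamethasone about as much as genes in general. Their median size of difference was 0.26, against 0.28 over all measured genes. Of 25 measured targets, 16 were higher at 24 h (50.8% of all genes), with a median difference of 0.15. Of these 25, 1 was at least 2-fold higher, against 3.22% of all genes. Under saline the median was 0.36, and 3 were at least 2-fold higher. Fkbp5, a co-chaperone that dampens the receptor, stood at 1.82 at 24 h and 1.77 at 12 h after dexamethasone, a ratio of 1.03 (0.784 to 1.36), within spot error. Tsc22d3, the anti-inflammatory leucine zipper GILZ, was 1.23-fold higher (0.930 to 1.62), again within spot error. The kinase gene Sgk1, which regulates sodium channels, was 1.46-fold higher (1.1 to 1.92). Zbtb16, a transcription factor, had levels of 2.00 at 24 h and 0.72 at 12 h after dexamethasone, 2.42-fold higher (1.84 to 3.20), and of 2.10 at 24 h and 0.80 at 12 h after saline. Zbtb16 was thus as far apart under saline as under dexamethasone, and was called over both treatments (limma adjusted p = 0.0197). Hif3a had a difference of 0.80, while the liver amino acid enzyme gene Tat (-0.75) and the iron-binding lipocalin gene Lcn2 (-0.96) were lower at 24 h.

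Interferon response genes, the antiviral programme, were mostly higher at 24 h. Of 30 measured members, 27 had a difference above 0, against 50.8% of all genes, and 4 were at least 2-fold higher, with a median of 0.61. Under saline the median was 0.44, with 6 at least 2-fold higher. The median gap between treatments over the 30 members was -0.00088, with 15 above 0 and 15 below (54.1% and 45.9% of all genes). Spike-in scaling gave interferon medians of 0.72 under dexamethasone and 0.93 under saline. Gbp2, a guanylate-binding GTPase gene induced by interferon gamma, stood at 2.55 at 24 h and 0.86 at 12 h after dexamethasone, 3.22-fold higher (2.44 to 4.24), against a saline difference of 0.31. Gbp3 was 2.27-fold, the oligoadenylate synthetase-like gene Oasl2 2.11-fold and Ifi44 2.09-fold higher under dexamethasone. At 12 h the dexamethasone levels of these 4 genes lay below the saline levels, and at 24 h the level of Gbp2 lay above its saline level of 2.12. The limma test over both treatments called 8 of the 30 members, all higher, against 3.63% of all genes tested.

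MHC class II genes, which present antigen on dendritic cells, macrophages and B cells, were higher at 24 h after dexamethasone and lower at 24 h after saline. The median difference of 9 measured members was 0.53 under dexamethasone and -0.46 under saline, the saline value turning to 0.028 with spike-in scaling, and 0 members were at least 2-fold apart in either. H2-Eb1 stood at 4.40 at 24 h and 3.43 at 12 h after dexamethasone, and at 4.29 at 24 h and 4.74 at 12 h after saline. H2-Aa had levels of 0.84 and 0.05 at 24 h and 12 h after dexamethasone, and H2-Ab1 of 4.19 and 3.48. The dexamethasone 12 h array thus held the lowest of the 4 values of each of these genes, and the invariant chain gene Cd74 had the same order (3.41 at 24 h and 2.75 at 12 h after dexamethasone, 3.31 at 24 h and 3.73 at 12 h after saline). The noise-only array was lower still for H2-Aa (-0.02), H2-Ab1 (3.34) and Cd74 (2.65), and not for H2-Eb1 (3.69). Of the 9 members, 8 had a dexamethasone difference above the saline difference, against 54.1% of all genes, with a median gap of 0.90. MHC class I genes had a median of 0.13 under dexamethasone, from -0.92 for the class I gene H2-Q4 to 0.72 for Nlrc5, the transactivator of class I genes.

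Cytokine and chemokine genes had members at both ends, with a median of 0.09 over 22 measured genes. Cxcl9, an interferon-induced attractant of T cells, had levels of -1.97 at 24 h and -4.49 at 12 h after dexamethasone, 5.75-fold higher (3.87 to 8.54). After saline it stood at -2.41 at 24 h and -1.91 at 12 h, so the dexamethasone 12 h array was the low one. Ccl21a, a lymphoid tissue chemokine with near-identical copies that a probe may not separate, was 2.57-fold higher and had a saline difference of -0.23. Cxcl13, the B cell attractant, had levels of -3.57 at 24 h and -1.15 at 12 h after dexamethasone, 5.35-fold lower (3.80 to 7.53), and was not well above background at 24 h after saline. Cxcl5, a neutrophil attractant, was 3.26-fold lower, with a saline difference of -2.05. Complement genes had a median of 0.15, with C4b at 0.88 and the properdin gene Cfp at -0.95, and adhesion and feedback genes one of -0.03 (0.076 with spike-in scaling), with the leukocyte adhesion gene Selp 2.18-fold lower.

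Neutrophil genes were lower at 24 h in all 19 measured members, with a median of -0.81 and 7 at least 2-fold lower, against 3.81% of all genes. Under saline 9 of 19 were at least 2-fold lower, with a median of -0.97. The limma test over both treatments called 13 of the 19, all lower, against 4.96% of all genes tested. Prtn3 and Ctsg, proteases of azurophil granules, were 2.54-fold and 2.11-fold lower under dexamethasone, and Chil3 was 3.35-fold lower. Ltf, which secretory glands express as well as neutrophils, was 9.94-fold lower (7.53 to 13.1), and Lyz1 and Lyz2, lysozymes of macrophages and glands, were 10.5-fold and 4.41-fold lower. Gland genes were lower too, with a list median of -3.29, and their part in these 3 values was not tested. The macrophage list as a whole had a median of -0.01 (0.092 with spike-in scaling), with the receptor genes Cx3cr1 at 0.67 and Csf1r at 0.58, the second probe of Csf1r differing the other way. In bulk tissue, fewer cells of a type and less RNA per cell cannot be told apart.

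Eosinophil granule genes were lower at 24 h, with a median of -1.10 over 10 measured members and 6 at least 2-fold lower. Prg2, the major basic protein, stood at 1.70 at 24 h and 3.22 at 12 h after dexamethasone, 2.87-fold lower, and at 3.18 at 24 h and 5.95 at 12 h after saline. The saline 12 h array was the highest for Prg2, Prg3 and Ear1, and the saline list median was -2.53. Among the 14 measured genes of B cells and their precursors, 8 were higher and 6 lower at 24 h after dexamethasone, with a median of 0.17 against -0.76 under saline. Igll1 and Vpreb1, parts of the surrogate light chain of the pre-B cell receptor, were 5.04-fold (3.25 to 7.82) and 2.80-fold (2.12 to 3.70) higher at 24 h, and Dntt, which adds bases at antigen receptor joints, was 2.10-fold higher. Igll1 stood at -2.19 at 24 h and -4.52 at 12 h after dexamethasone, and at -2.66 at 24 h and -1.30 at 12 h after saline, so the dexamethasone 12 h array was the lowest of these 4. In the noise-only array Igll1 was not well above background, and Vpreb1 (-2.27) and Dntt (-2.52) stood below their dexamethasone 12 h levels of -0.91 and -1.44. In 13 of the 14 B cell list genes the dexamethasone difference was above the saline difference, against 54.1% of all genes. Their list medians with spike-in scaling were 0.28 under dexamethasone and -0.27 under saline. The B cell coactivator gene Pou2af1 was at 0.83 under dexamethasone, the antigen receptor chain gene Cd79a at -0.60 and the transcription factor gene Pax5 at -0.48. T and NK cell genes had a median of -0.31, with Cd3g, a chain of the T cell receptor complex, 2.19-fold lower. The erythroid list had 15 of 18 genes below 0 (median -0.53) and 0 past 2-fold, among them Klf1, the erythroid transcription factor (-0.76). Megakaryocyte genes were lower in 12 of 12, with a median of -0.41, and proliferation genes in 25 of 27, with a median of -0.35 and the ribonucleotide reductase gene Rrm2 at -0.95.

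**Figure D4:**
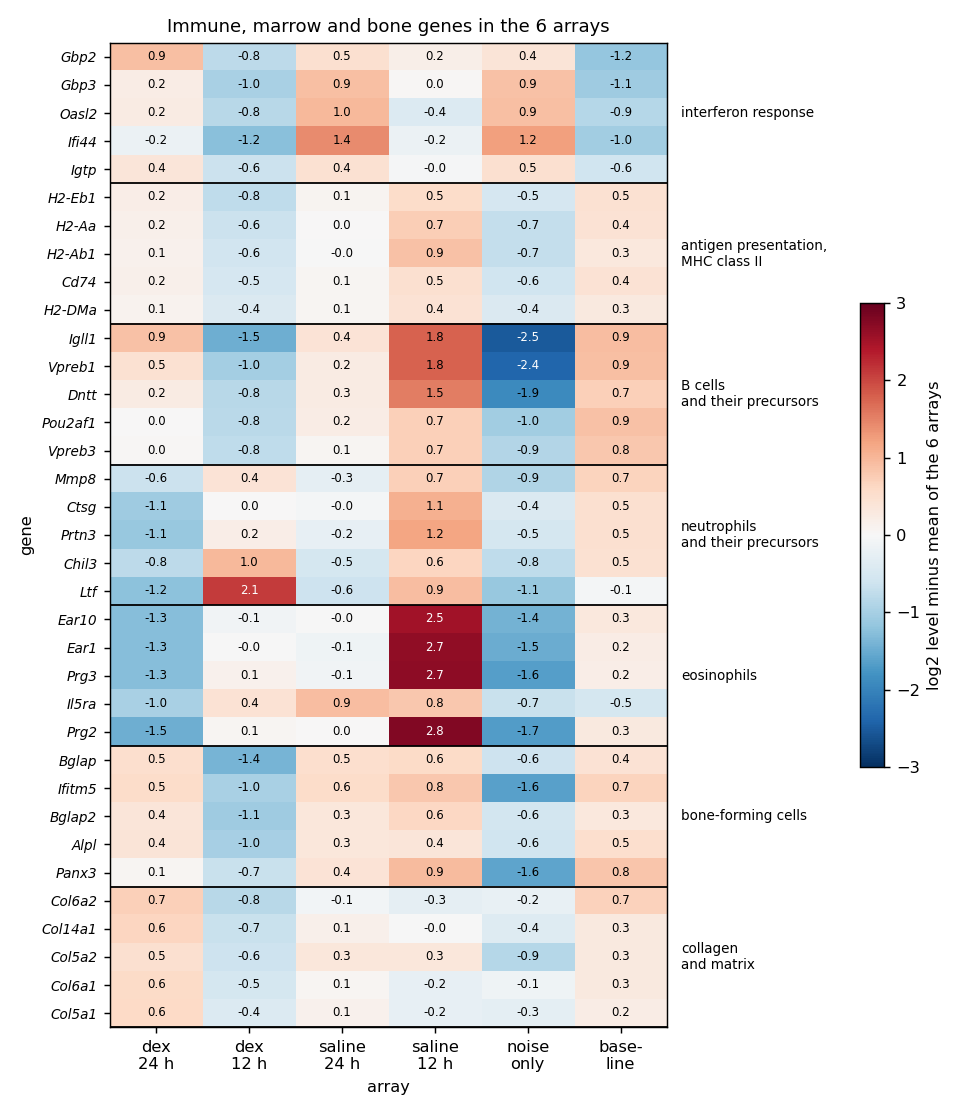
Log2 level minus the mean of the 6 arrays (colour and printed number) for 5 members of each of 7 immune, marrow and bone lists chosen by the size of their difference under dexamethasone, in columns from dexamethasone 24 h and 12 h to baseline. The dexamethasone 12 h column is the lowest of the dexamethasone and saline columns for MHC class II, precursor B cell and bone-forming genes, and the saline 12 h column is the highest for the eosinophil granule genes Prg2, Prg3, Ear1 and Ear10.

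Acute phase genes were mostly lower at 24 h than at 12 h after dexamethasone. Of 15 measured members of the list, which includes the metallothionein genes Mt1 (-0.25) and Mt2 (0.25), 12 had a difference below 0 and 4 were at least 2-fold lower, with a median of -0.66. Serpina3m, a serine protease inhibitor, had levels of -3.11 at 24 h and 0.36 at 12 h after dexamethasone, 11.04-fold lower (8.09 to 15.1), while after saline it stood at -3.47 at 24 h and -3.30 at 12 h. The dexamethasone 12 h array alone was high for Serpina3m. Saa3, a serum amyloid gene, was 5.30-fold lower, against a saline difference of -0.75, and the haptoglobin gene Hp and the orosomucoid gene Orm1 were 2.15-fold and 2.02-fold lower, against saline differences of -1.39 and -1.54. The fibrinogen genes Fgb and Fgg were above background at 12 h alone and were at least 4.65-fold and 3.04-fold lower at 24 h.

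Immediate early genes had a median of -0.01 (0.10 with spike-in scaling), with 13 of 26 measured members higher. Egr4 was 7.39-fold lower (4.92 to 11.1) and had a saline difference of -1.68, and Egr4 was high in the noise-only array (-0.83 against -3.71 at baseline), where the cerebellar gene Pcp2 was high too (5.23 against 0.27 at baseline), whose part in the Egr4 value was not tested. Arc, a regulator of synaptic receptors, was 2.25-fold higher under dexamethasone (saline difference -0.15), and Egr2, also a myelin regulator of Schwann cells, 2.13-fold higher. Cytosolic heat shock genes had a median of 0.01 (-0.025 with the percentile taken over detected probes alone), and unfolded protein and integrated stress response genes one of -0.20, with 0 of 16 and 0 of 21 at least 2-fold apart. Antioxidant genes had a median of 0.19. Hmox1, the haem-degrading enzyme, stood at 1.03 at 24 h and -0.41 at 12 h after dexamethasone, 2.72-fold higher (2.06 to 3.59), and at -1.13 at 24 h and -0.30 at 12 h after saline. The catalase gene Cat was 2.00-fold higher, with a saline difference of 0.97 (limma adjusted p = 0.0285 over both treatments). Apoptosis regulators had a median of -0.05 (0.060 with spike-in scaling), with the BH3-only gene Bbc3 2.00-fold lower and the survival gene Bcl2 at 0.80, though both its other probes differed the other way.

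Sterol and fatty acid synthesis genes, targets of the SREBP factors, were higher at 24 h in 18 of 19 measured members, with a median of 0.79 and 3 at least 2-fold higher. Under saline the median was 0.32, with 15 of 19 higher. The desaturase gene Scd1 stood at 4.11 at 24 h and 2.44 at 12 h after dexamethasone, 3.20-fold higher (2.43 to 4.23), and at 3.03 at 24 h and 1.70 at 12 h after saline. Idi1 of isoprenoid synthesis was 2.17-fold and the HMG-CoA synthase gene Hmgcs1 1.93-fold higher. Second probes of Scd1 and Hmgcs1 had smaller differences of 0.54 and 0.11 under dexamethasone. Adipocyte and lipid droplet genes had a median of 0.71, with 5 of 17 at least 2-fold higher. Ucp1, the uncoupler of brown fat, was 3.91-fold higher and the lipid droplet gene Plin1 3.73-fold. Fat beside the cochlea carries many of the same genes, and its part in the sterol and fatty acid values was not tested. Skeletal muscle contractile genes were lower in 21 of 22, with a median of -1.0 under dexamethasone and -0.92 under saline. The limma test called 17 of 23, all lower, against 4.96% of all genes tested. The summed level of the muscle list, in multiples of the 75th percentile, was 459 at 24 h and 934 at 12 h after dexamethasone. Of the muscle atrophy genes, the ubiquitin ligase gene Trim63 was 3.59-fold lower and the growth inhibitor gene Mstn 3.81-fold lower, in a list with a median of -0.19.

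Most genes of hair cells and stria vascularis were higher at 24 h. Hair cell genes had a median of 0.39, with 18 of 22 higher under dexamethasone, 2 past 2-fold in each direction, and a saline median of 0.73. Pou4f3, the transcription factor of hair cell differentiation and survival, stood at -2.61 at 24 h and -3.85 at 12 h after dexamethasone, 2.37-fold higher (1.65 to 3.42), and at -2.77 at 24 h and -4.20 at 12 h after saline. The efferent acetylcholine receptor gene Chrna9 was 2.22-fold lower and the mechanotransduction gene Tmie 2.10-fold lower. The unconventional myosin gene Myo7a had a difference of 0.58 and the synaptic calcium sensor gene Otof of 0.13. Stria vascularis genes had a median of 0.27, with 16 of 19 higher. Kcnj10, the potassium channel of intermediate cells that sets the endocochlear potential, stood at 3.88 at 24 h and 2.58 at 12 h after dexamethasone, 2.47-fold higher (1.87 to 3.25), and at 3.83 at 24 h and 2.50 at 12 h after saline (limma adjusted p = 0.0179). Kcnj10 is also a gene of glia, and the part of Schwann or satellite cells was not tested. Of the 19 strial genes, 16 had the smaller difference under dexamethasone (45.9% of all genes), with a median gap of -0.42. Supporting cell genes had a median of 0.05, with Fabp7, a fatty acid binding protein of glia, 3.01-fold higher under dexamethasone, a saline difference of -0.76, and Slc1a3, a glutamate transporter, 2.11-fold lower, though its second probe differed the other way. Spiral ligament genes had a median of 0.18, with cochlin (Coch) at -0.41 and 0 of 12 at least 2-fold apart.

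Spiral ganglion neuron genes were higher in 20 of 24, with a median of 0.49 and 5 at least 2-fold higher. The vesicular glutamate transporter genes Slc17a7 and Slc17a6 were 2.29-fold and 2.28-fold higher, and the neurofilament gene Nefm 2.16-fold, with saline differences of 0.89, 1.11 and 0.91. Th was the highest of this list at 6.10-fold, and the sympathetic list holds it too. Schwann cell and myelin genes were higher in 17 of 18, with a median of 0.82 and 5 at least 2-fold higher, against a saline median of 0.55 and 0 of 18. Scaled on spike-in probes, the myelin medians were 0.92 under dexamethasone and 1.04 under saline, so their order depended on the scaling. Mag, a glycoprotein at the inner face of myelin, stood at 3.25 at 24 h and 1.25 at 12 h after dexamethasone, 4.00-fold higher (3.03 to 5.27), and at 2.53 at 24 h and 1.74 at 12 h after saline. Its second probe differed the other way. Ugt8a, which makes galactosylceramide, was 3.18-fold higher. Nociceptor genes of sensory ganglia were higher in 16 of 16 under dexamethasone, with a median of 0.98, and the actin-binding gene Avil of sensory neurons had a difference of 1.42. The summed level of the nociceptor list was 60.0 at 24 h and 31.8 at 12 h after dexamethasone, and the part of sensory ganglia or nerve carried along in dissection in the neuronal and myelin values was not tested. Synaptic genes had a median of -0.21, and the NMDA receptor genes Grin2a and Grin2c were 8.49-fold and 7.04-fold lower and the AMPA receptor gene Gria1 3.39-fold lower. All 3 had low saline differences too (-1.42, -1.55 and -1.23), and they stood highest in the noise-only array, as Pcp2 did.

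Genes of bone-forming cells were higher at 24 h under dexamethasone. Of 19 measured members, 14 had a difference above 0 and 4 were at least 2-fold higher, with a median of 0.35, against -0.11 under saline. Scaled on spike-in probes, the bone medians were 0.45 under dexamethasone and 0.38 under saline. The osteocalcin gene Bglap, of mature osteoblasts, stood at 6.03 at 24 h and 4.13 at 12 h after dexamethasone, 3.74-fold higher (2.83 to 4.93), and at 6.03 at 24 h and 6.08 at 12 h after saline. Baseline held it at 5.95, so the dexamethasone 12 h array was the lowest of the 6 and the 24 h array lay at the level of saline and baseline. Its near-identical neighbour Bglap2, which a probe may not separate from it, was 2.68-fold higher, and a second Bglap probe had a difference of 0.72. The osteoblast gene Ifitm5 and Alpl, the phosphatase of mineralisation, were 2.86-fold and 2.64-fold higher, with saline differences of -0.26 and -0.01. Sost, an osteocyte inhibitor of bone formation, had a difference of -0.65. Osteoclast genes had a median of -0.05 (0.055 with spike-in scaling). Collagen and matrix genes were higher in 26 of 29, with a median of 0.49, 5 at least 2-fold higher and a saline median of 0.07. With spike-in scaling the medians were 0.60 under dexamethasone and 0.56 under saline. Col6a2 was 2.89-fold, Col14a1 2.46-fold, Col5a2 2.16-fold and Col6a1 2.16-fold higher, and their saline differences lay between -0.00 and 0.30. A second probe of Col5a2 differed the other way, and the 2 other probes of Col6a2 had differences of 0.20 and 0.49. In 24 of the 29 the dexamethasone difference was above the saline difference (54.1% of all genes). Oxidative phosphorylation subunits had a median of 0.09 and 0 of 25 at least 2-fold apart, and 24 of 25 had the larger difference under dexamethasone, with a median gap of 0.31 that was -0.065 with spike-in scaling. Endothelial genes had a median of 0.24 under dexamethasone and 0.23 under saline.

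The largest differences in either direction belonged to genes of glands and of sympathetic neurons. The lowest of all measured genes was Sbpl, with levels of -2.37 at 24 h and 7.88 at 12 h after dexamethasone, a log2 difference of -10.25, and -9.49 under saline. The mucosal peptide gene Tff2 (chromosome 17, 31279256 to 31280080 in mm9) was 295-fold lower (223 to 392), with levels of -1.90 at 24 h and 6.30 at 12 h after dexamethasone, and -2.81 at 24 h and 4.71 at 12 h after saline. The mucin gene Muc5b was 124-fold, the airway secretory gene Bpifb1 48.4-fold and the antimicrobial lectin gene Reg3g 33.1-fold lower. The 12 h arrays of both treatments, on the same slide, were thus the high ones for glands. Gland genes were lower in 12 of 14 measured members, 10 at least 2-fold, with a median of -3.29, and their summed level was 199 at 24 h and 1383 at 12 h after dexamethasone and 227 at 24 h and 938 at 12 h after saline. Epidermal genes were lower in 12 of 12, with a median of -4.05, and the cornified layer gene Lor was 31.2-fold and the basal keratin gene Krt5 28.5-fold lower. Cerebellar genes were lower in 18 of 18, with a median of -2.12, and the Purkinje cell gene Pcp2 was 18.1-fold lower (13.7 to 23.9). The limma test over both treatments called 10 of 17 gland, 18 of 20 epidermal and 11 of 19 cerebellar genes, all lower. Of all genes tested, 4.96% were called lower.

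Sympathetic, choroid plexus and pituitary genes had medians of 1.71, 1.34 and 1.03 under dexamethasone and of 0.41, 0.42 and -2.22 under saline. The sympathetic medians covered 14 genes under dexamethasone and 10 under saline. Over the 10 sympathetic genes measured on all 4 arrays the median gap was 0.81, with 9 above 0 and 1 below. The pituitary medians covered 8 genes under dexamethasone and 7 under saline. Over the 7 pituitary genes measured on all 4 arrays the median gap was 0.13, with 5 above 0 and 2 below. Dbh, the enzyme that makes noradrenaline (chromosome 2, 27038665 to 27038724 in mm9), stood at 3.74 at 24 h and -2.50 at 12 h after dexamethasone, 75.7-fold higher (56.9 to 101). It was not well above background at 24 h after saline, and stood at -4.88 at 12 h after saline, at -2.93 after noise alone and at 3.58 at baseline, so the dexamethasone 24 h and baseline arrays were the high ones. The noradrenaline transporter gene Slc6a2 was 48.5-fold, the transcription factor gene Phox2a 17.9-fold, Th 6.10-fold and Ddc 5.67-fold higher. Of the 14 sympathetic genes measured 10 were at least 2-fold higher, and of the 13 choroid plexus genes 8, against 3.22% of all genes. The choroid plexus gene Ttr was 32.4-fold higher (24.6 to 42.8), with levels of 5.49 at 24 h and 0.47 at 12 h after dexamethasone, 0.60 at 24 h and 0.26 at 12 h after saline and 5.51 at baseline. The pituitary hormone gene Pomc was 24.6-fold higher under dexamethasone, and Gh and Prl 4.34-fold and 2.75-fold, while their saline differences were -3.45, -4.80 and -5.77. The summed level of the pituitary list was 107 at 24 h and 24.9 at 12 h after dexamethasone and 2.9 at 24 h and 48.8 at 12 h after saline. Pomc, Gh and Prl did not pass the test over both treatments, in which opposite differences count as error (limma adjusted p = 0.851, 0.595 and 0.415). With only the members of the lists of neighbouring tissues left out, 712 genes exceeded 2-fold upward under dexamethasone and 837 downward. Genes outside the lists, such as Sbpl, stayed in these counts, so the part of neighbouring tissue in them was not tested.

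**Figure D5:**
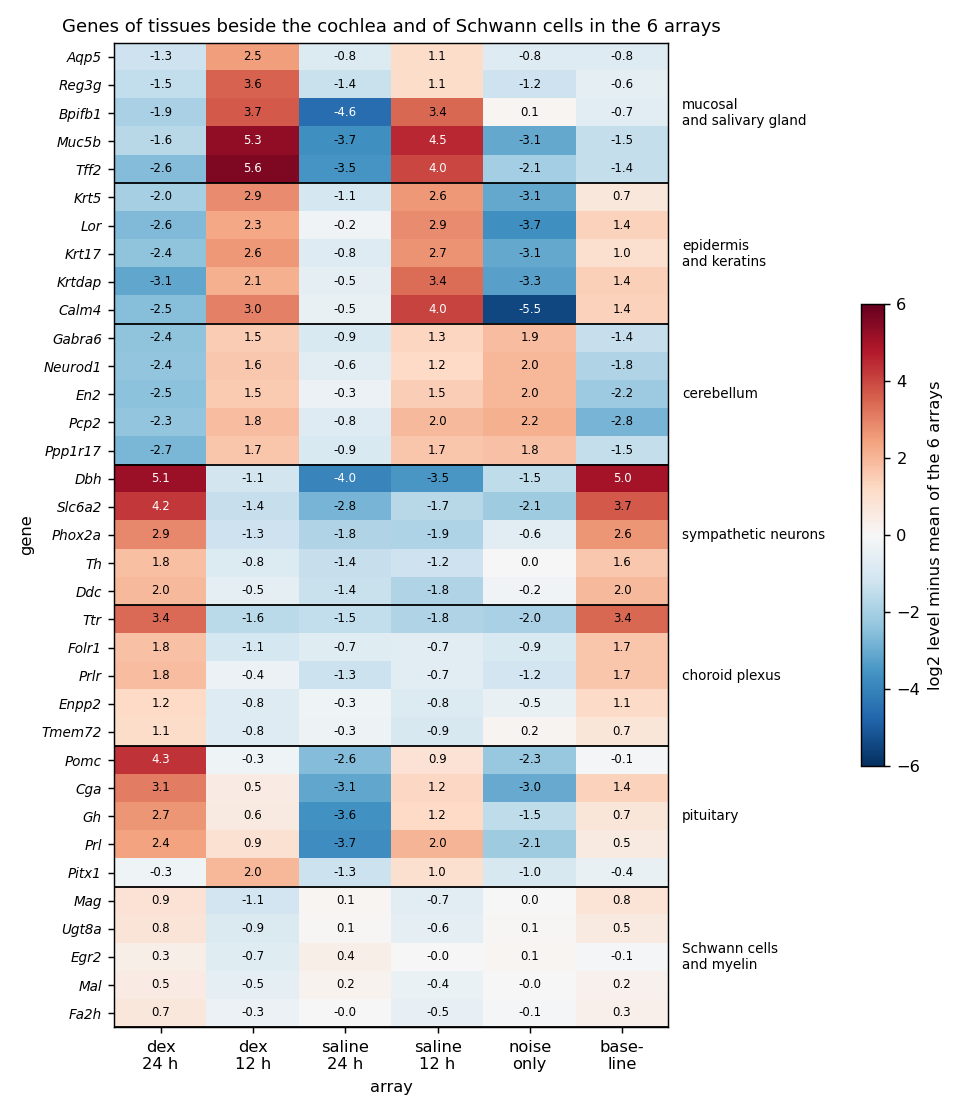
Log2 level minus the mean of the 6 arrays (colour and printed number) for 5 members of each of 7 lists of Schwann cells and tissues beside the cochlea chosen by the size of their difference under dexamethasone. The 12 h columns of both treatments are high for gland and epidermal genes, and the dexamethasone 24 h and baseline columns are high for sympathetic and choroid plexus genes.

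Outside the lists, a few bright genes had time differences far apart in the 2 treatments. Nmrk2, a nicotinamide riboside kinase of muscle, stood at 1.22 at 24 h and 0.66 at 12 h after dexamethasone, and at -1.71 at 24 h and 2.18 at 12 h after saline, a gap of 4.45. The saline 24 h array was the lowest of the 6 for Nmrk2. Pax1, a transcription factor of the axial skeleton, was 5.44-fold lower (4.12 to 7.18) under dexamethasone, with levels of -0.36 at 24 h and 2.09 at 12 h, and had a saline difference of -0.56. The dexamethasone 12 h array alone was high for Pax1. Cyp2a5, a xenobiotic-metabolising cytochrome that a probe may not separate from its near-identical paralogue Cyp2a4, was 2.94-fold lower (2.23 to 3.88), with a saline difference of 0.36. Cyp2e1, the ethanol-oxidising cytochrome, had differences of -0.40 under dexamethasone and 2.50 under saline, where the saline 12 h array was the low one.

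Genes above background on 1 dexamethasone array alone numbered 230 on the 24 h side, of which 110 were at least 2-fold higher by their lower bound, and 606 on the 12 h side, of which 246 were at least 2-fold lower. For the dim array a bound takes the probe's own signal or the weakest signal that still counts as well above background there, whichever is larger. The largest bounds were for B4galnt2, at least 280-fold lower, Dcpp2, a salivary gland gene, at least 227-fold lower, the keratinocyte galectin gene Lgals7, at least 111-fold lower, and the cornified envelope gene Lce1a1, at least 74.1-fold lower. On the other side Oxct2b was at least 18.0-fold, the lens crystallin gene Cryba2 at least 16.1-fold and Dnajb8 at least 11.2-fold higher. Other measured probes existed for 357 of the genes past 2-fold, and in 80.4% of these genes each probe pointed the same way. Atf7, among the 15 lowest with a difference of -5.35, had 1 of 4 other probes in its direction.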

How the data were processed

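RNA from dissected cochlear tissue was hybridised to Agilent one-colour (Cy3) mouse arrays, 1 array for each of 6 groups. The intensity values are processed spot signals, for which Agilent Feature Extraction (10.10.1.1) had subtracted background, detrended and put surrogate values in place of the lowest signals, per the file headers. The deposited table of log2 values equals log2 of that signal minus a constant for each array, within 0.001 for 100% of probes, and how the authors chose the constant is not stated in these sources. From the signals, log2 minus the 75th percentile of the non-control probes of the array was computed, and spots of a probe were averaged. A gene was represented by its brightest probe over the 6 arrays and counted as measured where Agilent's flag called it well above background on both arrays of a comparison. Of 56605 probes, 33898 took a RefSeq name (GRCm38.p6) and 22707 stayed under the array's own name. The processed-signal error gave the range behind each fold.

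The design allows no test between 2 arrays. limma 3.58.1 (R 4.3.3) tested the 24 h against the 12 h arrays over both treatments, 4 arrays, with the treatment as a term and Benjamini-Hochberg adjustment at 0.05. On simulated data for that test, over 24740 genes, it recovered 4% of 100 genes set to a 2-fold change and 71% of 100 set to a 4-fold change, with 7 false calls. The simulated noise was independent and drawn from the fit's own error model, with no slide offset. It therefore cannot show how many of the calls in the real arrays are false. The labels do not say that arrays come from separate animals or pools, so its p-values measure only the spread between these arrays. Named genes were the 15 highest and 15 lowest bright genes, up to 4 of each of 45 lists, every clock gene, 10 each way by the gap between treatments and 5 bounds each way. Other genes were named as defining members of a list after their values were seen. The comparison and the lists were chosen with earlier results of these data known. Alternatives were other background corrections, normalizations, probe summaries, filters, thresholds and omitted arrays. Python 3.11.15 with pandas 2.3.3 did the rest. Some genes are not reported here, though they count in the totals of their lists.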

Additional observations from a re-analysis of the deposited data

Results flagged for a closer look

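Several time differences pointed opposite ways in the 2 treatments, and in each case the difference between treatments was not tested, since each group had 1 array. The median of the MHC class II genes was 0.53 under dexamethasone and -0.46 under saline, and that of the pituitary genes was 1.03 under dexamethasone and -2.22 under saline. The pituitary medians covered 8 and 7 genes, and over the 7 measured on all 4 arrays the median gap was 0.13. Of these, 5 had the higher difference under dexamethasone and 2 the lower. Among genes of precursor B cells, Igll1 had a 24 h minus 12 h difference of 2.33 under dexamethasone and -1.36 under saline. Vpreb1 had 1.49 under dexamethasone and -1.53 under saline, and Dntt had 1.07 under dexamethasone and -1.27 under saline. The pituitary hormone genes had wider gaps, with Pomc at 4.62 under dexamethasone and -3.45 under saline, Gh at 2.12 under dexamethasone and -4.80 under saline, and Prl at 1.46 under dexamethasone and -5.77 under saline. Tnfsf11, the cytokine RANKL that drives osteoclast formation, ran the other way, at -1.01 under dexamethasone and 1.42 under saline. Its dexamethasone 24 h level of -4.57 lay near the weakest signal well above background on that array, -4.83. By spot error Tnfsf11 was 1.21-fold to 3.34-fold lower under dexamethasone.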

How the results depend on the processing

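Counts of genes at least 2-fold apart, given as higher and lower, depended on the processing. With normexp background correction and quantile normalization they were 407 and 507 under dexamethasone, 308 and 509 under saline, and 236 and 236 for the gap between treatments. With no filter on dim probes they were 1812 and 2830 under dexamethasone, 1531 and 3271 under saline, and 2704 and 2423 for the gap. Over genes at or above the median signal they were 218 and 256, 157 and 342, and 115 and 97 in the same order. At a 1.5-fold threshold they were 2376 and 2434, 2337 and 2983, and 1660 and 1388, and at a 3-fold threshold 193 and 329, 141 and 256, and 129 and 136. Spike-in scaling gave 2953 and 320 under saline and 196 and 1255 for the gap. The test over both treatments called 3658 genes with spike-in scaling, 5144 with no filter on dim probes, 22 without a mean-variance trend and 118 with the treatment term left out, an alternative chosen after seeing the data. It called between 0 and 466 (228 among them) with that term and 1 array left out, a fit in which the lone array of a time is assumed to vary like the others. The causes of these moves were not tested, apart from thresholds and filters, which change the genes counted by construction. Of 945 medians of lists recomputed under the alternatives, 890 stayed within the median spot error, 53 moved further and 2 larger than that error reversed. Medians nearer 0 can change sign with any scaling. The median spot error was 0.40, wider than many list medians, so staying within it does not show that a median changed little. Counts were judged by another measure, so the 2 cannot be ranked by how much they depended on the processing. The saline median of MHC class II genes was 0.028 with spike-in scaling and that of sympathetic neurons was -0.11 over brighter genes. Of 1308 values of named genes 1257 stayed, 50 moved and 1 reversed, the antioxidant transporter gene Slc7a11, at -0.066 under dexamethasone as the mean over its probes. No paired analysis was possible because each group has 1 array. The number of arrays limits the precision, slide and time cannot be told apart, and genes near background carry wide spot errors.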
